A study of Homo sapiens with 4 samples.

Results

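HOTAIRM1, HOXA-AS2, HOXA-AS3, HOXA11-AS and HOTTIP are long non-coding RNA (lncRNA) genes that lie between and opposite the coding genes of the HOXA cluster on human chromosome 7. They were measured in HUH7 cells, an established line of hepatocellular carcinoma, grown in DMEM medium with fetal bovine serum with no treatment named in the labels, in 4 libraries of 1 group named replicates 1 to 4. Members were the transcripts of the deposited table whose identifier, without its version, belonged to 1 of these 5 genes in the GENCODE annotation. In all, 28 of 19835 transcripts were members. RNA had been depleted of ribosomal RNA and made into strand-specific libraries, although the labels also name the molecule polyA RNA. Values are FPKM, that is fragments per kilobase of transcript and relative to all fragments placed in that library, and a gene's level is the sum over its transcripts. Errors are SD over n = 4 libraries. Whether the libraries stem from different cultures is not stated, and the p-values therefore cover library-to-library spread only, which could be technical.

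HOX genes encode transcription factors that give cells their position along the body axis, and within a cluster they lie in the order in which they are used, from the anterior to the posterior end. All coding genes of the HOXA cluster run in one direction, and the lncRNAs described here run in the other. HOTAIRM1 lies at the anterior end and is known from maturing myeloid cells and from the response to retinoic acid, while HOTTIP lies at the HOXA13 end and is known to bind WDR5 and to help keep the posterior HOXA genes active.

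In HUH7 cells the lncRNAs of the anterior end were abundant and those further along were scarce. HOTAIRM1 had 57.77, 32.66, 47.52 and 46.57 FPKM in replicates 1 to 4. HOXA-AS2, which runs opposite HOXA3 and HOXA4 and has been described in leukaemia cells, had 33.14, 38.61, 34.2 and 34.4 FPKM. In every library both stood above each of the other genes. The values are averages over the culture, in which fewer cells with the RNA and less RNA per cell cannot be told apart. HOXA-AS3, opposite HOXA3 to HOXA7, had 1.22, 0.76, 0.83 and 0.51 FPKM. HOXA11-AS, opposite HOXA11 and known from the endometrium, had 2.05, 2.25, 0.87 and 1.39 FPKM. HOTTIP had 0.99, 2.5, 2.4 and 3.19 FPKM. The lowest library of the abundant pair, at 32.66 FPKM, was 10.2 times the highest of the remaining genes, at 3.19 FPKM. HOTAIRM1 and HOXA-AS2 together held 95.5%, 92.8%, 95.2% and 94.1% of the summed member FPKM in replicates 1 to 4. The drop came between neighbouring genes whose spans overlap, since HOXA-AS3 begins inside the span of HOXA-AS2. That overlap rests on scarce transcripts, ENST00000521159 of HOXA-AS2 (mean 2.7 FPKM) and ENST00000518848 of HOXA-AS3 (mean 0.21 FPKM). The other HOXA-AS2 transcripts end before HOXA-AS3 begins.

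**Figure D1:**
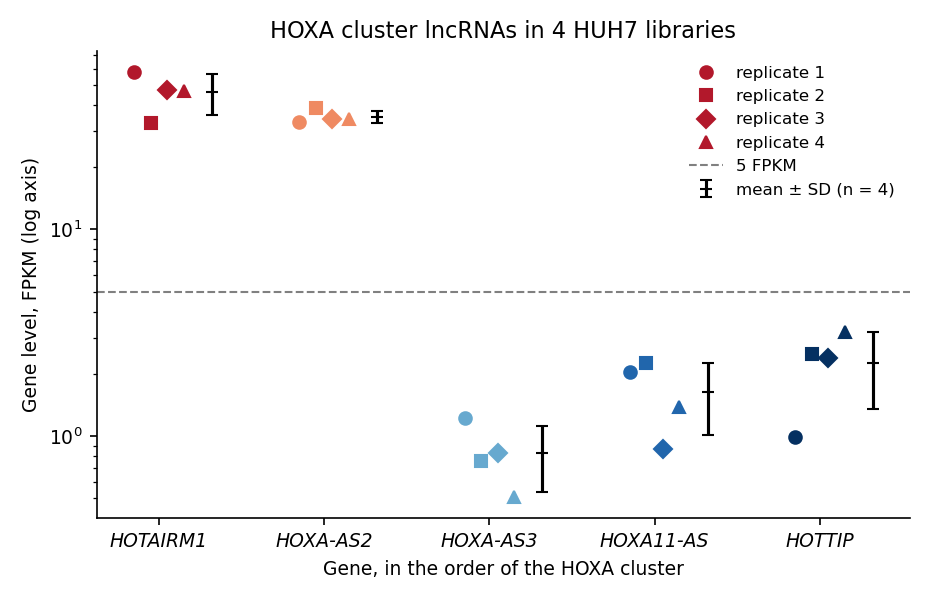
Level of each lncRNA gene in FPKM (log axis) in the 4 HUH7 libraries, with genes ordered along the HOXA cluster, points for single libraries, bars for mean ± SD and a dashed line at 5 FPKM. All libraries of HOTAIRM1 and HOXA-AS2 lie between 32.66 and 57.77 FPKM, and all libraries of the other genes lie between 0.51 and 3.19 FPKM.

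Each gene was then set against 5 FPKM, the level used to choose transcripts for a knockdown library, by the moderated one-sample test of limma on log2(FPKM + 1), adjusted over 7124 genes. HOTAIRM1 averaged 46.1 ± 10.3 FPKM and lay above 5 FPKM by 2.95 on the log2(FPKM + 1) scale (SE 0.12, limma adjusted p = 9.06e-12). HOXA-AS2, at 35.1 ± 2.41 FPKM, lay above it by 2.59 (SE 0.10, limma adjusted p = 5.27e-12). The other genes were below the threshold in every library. HOXA-AS3 averaged 0.83 ± 0.294 FPKM, a log2 difference of -1.73 (SE 0.21, limma adjusted p = 2.2e-06). HOXA11-AS averaged 1.64 ± 0.631 FPKM, a log2 difference of -1.22 (SE 0.23, limma adjusted p = 0.000179). HOTTIP averaged 2.27 ± 0.923 FPKM, a log2 difference of -0.93 (SE 0.24, limma adjusted p = 0.0024). Thus 2 of 5 genes were above and 3 of 5 below, where among all genes tested 50.3% were above and 38.5% below. The median of the 5 gene means was 2.27 FPKM, against 7.61 FPKM over all genes tested. HOTAIRM1 stood at percentile 76.5 of the tested genes and HOXA-AS2 at 72.9, against 20.7 for HOXA-AS3, 29.5 for HOXA11-AS and 33.6 for HOTTIP. Against 1 FPKM instead of 5, HOTTIP was above (log2 difference 0.66, limma adjusted p = 0.0215), and neither HOXA-AS3 (limma adjusted p = 0.54) nor HOXA11-AS (limma adjusted p = 0.153) could be placed.

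The order of the levels was HOTAIRM1, HOXA-AS2, HOTTIP, HOXA11-AS and HOXA-AS3. Of the 10 pairs of genes, the 6 that set 1 of the abundant genes against 1 of the scarce ones had ranges that did not overlap, with ratios of means from 15.5 to 55.6. For these pairs the exact two-sided sign-flip permutation test within libraries gave p = 0.125, the smallest that 4 libraries allow (adjusted over 10 pairs, 0.179), so no pair could reach 0.05. HOXA-AS2 and HOTTIP, the only neighbours in the order among them, differed by 3.51 ± 0.43 on the log2(FPKM + 1) scale. The other neighbours had ranges that overlapped. HOTAIRM1 exceeded HOXA-AS2 in 3 of 4 libraries, by 0.36 ± 0.43 on the log2(FPKM + 1) scale (exact permutation p = 0.25, adjusted 0.278), and replicate 2 went the other way. Without replicate 1 this difference was 0.22, and without replicate 2 it was 0.56. HOTTIP exceeded HOXA11-AS in 3 of 4 libraries, by 0.29 ± 0.70 (exact permutation p = 0.375, adjusted 0.375), with replicate 1 the exception. This difference was 0.59 without replicate 1, 0.10 without replicate 3 and 0.12 without replicate 4. HOXA11-AS exceeded HOXA-AS3 in 4 of 4 libraries, by 0.51 ± 0.36 (exact permutation p = 0.125, adjusted 0.179), although their ranges overlapped.

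The spread between libraries also differed among the genes. HOXA-AS2 was the steadiest, with a coefficient of variation (CV) of 6.88%, and HOTAIRM1 had 22.4%. The scarce genes had CVs of 35.4% (HOXA-AS3), 38.5% (HOXA11-AS) and 40.7% (HOTTIP). Their depth was small. The FPKM steps of low values gave an estimated 4525000, 4868000, 4747000 and 4991000 fragments on non-coding transcripts in replicates 1 to 4. With this depth, 1 fragment on the 621 nt HOXA-AS3 isoform ENST00000521231 was worth 0.37 to 0.409 FPKM.

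**Figure D2:**
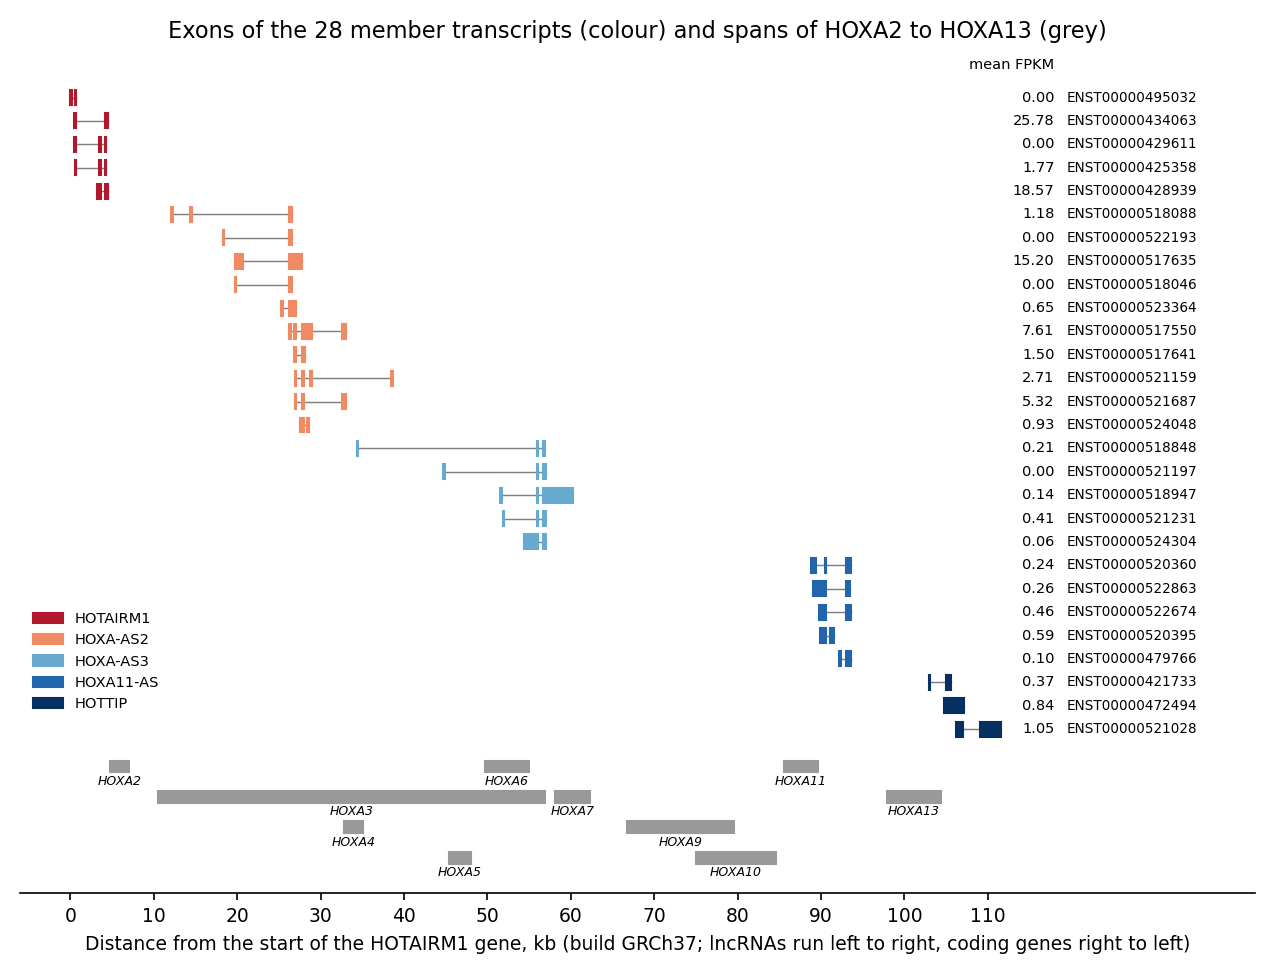
Exons of the 28 member transcripts (boxes joined by lines, coloured by gene) by distance in kb from the start of the HOTAIRM1 gene, with the mean FPKM of each over 4 libraries at the right and the spans of the coding genes from HOXA2 to HOXA13 in grey. The transcripts with means of 7.61 FPKM or more (ENST00000434063, ENST00000428939, ENST00000517635 and ENST00000517550) all belong to HOTAIRM1 and HOXA-AS2.

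At the level of single transcripts, 22 of the 28 members had a mean of at least 0.1 FPKM and were tested, 5 were listed at 0 in all 4 libraries and 1 lay between. The 5 at 0 were ENST00000495032 and ENST00000429611 of HOTAIRM1, ENST00000522193 and ENST00000518046 of HOXA-AS2, and ENST00000521197 of HOXA-AS3. Only 9 of the 28 were above 0 in all libraries. By limma with adjustment over 11435 transcripts, 4 of the 22 tested were above 5 FPKM (18.2%), 17 were below (77.3%) and 1 could not be placed (4.55%). Among all tested transcripts 41.9% were above and 43.3% below. The median of the tested members was 0.884 FPKM, against 4.72 FPKM over all tested transcripts. The 4 above were 2 of HOTAIRM1 and 2 of HOXA-AS2.

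The HOTAIRM1 gene (ENSG00000233429, chr7:27135266-27139884 in build GRCh37, plus strand) had 5 transcripts in the table, with overlapping exons. ENST00000434063 (2 exons, 671 nt) joins its first exon directly to the last exon, and ENST00000428939 (2 exons, 889 nt) starts inside an intron of ENST00000425358 and joins the middle exon to the last one. The exon junctions are shown because that of ENST00000434063 and the first of ENST00000425358 occur in no other row of the table, while that of ENST00000428939 occurs in 3 rows and is also the second of ENST00000425358. Each line gives 30 nt on either side of the junction from the GRCh37 genome, 5′ to 3′ on the plus strand, with the downstream exon in capitals.
ENST00000434063 (chr7, exon end 27136007, next exon start 27139398): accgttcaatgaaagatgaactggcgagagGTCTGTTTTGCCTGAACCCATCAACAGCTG
ENST00000425358, first junction (exon end 27136007, next exon start 27138693): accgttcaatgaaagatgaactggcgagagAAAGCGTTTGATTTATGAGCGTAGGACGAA
ENST00000428939 (exon end 27138985, next exon start 27139398): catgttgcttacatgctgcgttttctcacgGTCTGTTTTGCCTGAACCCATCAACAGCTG

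ENST00000434063 had 25.62, 21.95, 26.38 and 29.18 FPKM in replicates 1 to 4. Its libraries were all well above 5 FPKM (log2 difference 2.15, limma adjusted p = 9.73e-08), and it carried 57.4 ± 9.96% of the gene's FPKM. ENST00000428939 had 30.32, 10.71, 21.14 and 12.13 FPKM, a mean of 18.6 ± 9.09 FPKM (log2 difference 1.59, limma adjusted p = 0.000126) and 39.0 ± 11.8% of the gene. It was high in replicates 1 and 3 and low in replicates 2 and 4, and the same was not seen in ENST00000434063, which was lowest in replicate 2 and highest in replicate 4. The ratio of ENST00000428939 to ENST00000434063 was 1.18, 0.488, 0.801 and 0.416 in replicates 1 to 4, so that the order of the isoforms was reversed in replicate 1. ENST00000425358 (3 exons, 637 nt) had 1.83, 0, 0 and 5.26 FPKM, with all of its bases shared with other rows. It was called below 5 FPKM (log2 difference -1.55, limma adjusted p = 0.00777), and the call was lost without replicate 2 (limma adjusted p = 0.0572), with no filter (limma adjusted p = 0.0715) and with the H libraries alone (limma adjusted p = 0.0668).

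RSEM, the program that gave the FPKM, divides reads between isoforms that share sequence, so the bases that a row shares with no other row of its strand matter for these values. ENST00000434063 had 45 such bases (6.71% of its length), in addition to its junction. ENST00000428939 had 235 (26.4%), a run at its 5′ end that ends where the middle exon of ENST00000425358 begins and so is the last part of an intron of that isoform. The stretch is printed because it is the only sequence that sets ENST00000428939 apart, with no coding exon on either strand.
ENST00000428939, own part (chr7:27138458-27138692, GRCh37, plus strand, 41.7% G and C): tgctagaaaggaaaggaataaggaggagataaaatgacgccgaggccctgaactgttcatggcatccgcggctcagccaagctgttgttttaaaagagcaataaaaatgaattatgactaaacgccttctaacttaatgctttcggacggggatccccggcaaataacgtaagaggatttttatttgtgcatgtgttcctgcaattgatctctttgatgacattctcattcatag

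The estimated fragments let the spread of the isoforms be set against counting error. ENST00000434063 had about 68.5, 63.2, 74.0 and 86.1 fragments in replicates 1 to 4, for which counting alone gives a CV of 11.7%, and its observed CV was 11.6%. ENST00000428939 had about 111, 42.2, 81.2 and 49.0 fragments, where counting gives 11.9% and 48.9% was observed. Both isoforms rested on nearly the same number of fragments, and the spread of 1 was at the counting level while that of the other was above it. Most bases of both are shared with other rows. The counting level leaves out any spread from the division of shared reads by RSEM, which was not tested. Libraries 1 and 3 carry the letter L in their titles and libraries 2 and 4 the letter H, which the submitters describe as internal names rather than variables. ENST00000428939 was higher in both L libraries (30.32 and 21.14 FPKM) than in both H libraries (10.71 and 12.13 FPKM). Of the 22 tested members, 5 had both L libraries above both H libraries (22.7%) and 1 the reverse order (4.55%), against 13.2% and 14.6% of all tested transcripts. Of the 5 gene sums, those of HOTAIRM1 and HOXA-AS3 had both L libraries above both H libraries (40%, against 12.6% of all genes). Those of HOXA-AS2 and HOTTIP had the reverse order (40%, against 15.2%), and HOXA11-AS overlapped. In each separated sum, the nearest L and H libraries lay close together. They had 47.52 and 46.57 FPKM for HOTAIRM1 and 0.83 and 0.76 FPKM for HOXA-AS3. For HOXA-AS2 they had 34.2 and 34.4 FPKM, and for HOTTIP 2.4 and 2.5 FPKM. What the letters stand for was not given, and their part in the spread was not tested.

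**Figure D3:**
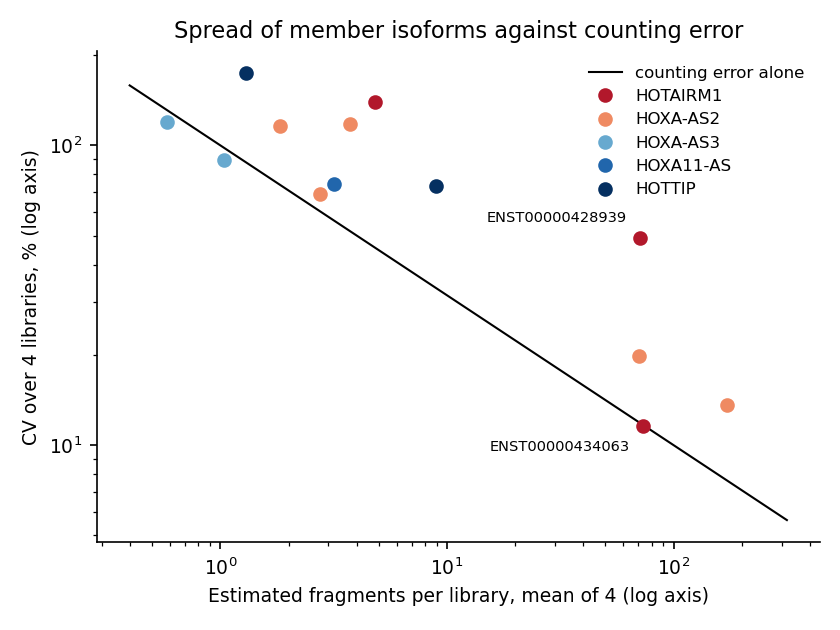
CV over 4 libraries (in %, log axis) against the mean estimated fragments per library (log axis) for the member isoforms above 0 whose model has the same version in the annotation, with the line that counting error alone would give. ENST00000434063 (11.6%) lies on the line, and ENST00000428939 (48.9%) lies above it at a nearly equal number of fragments.

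The 3 HOTAIRM1 isoforms above 0 had no exonic base opposite a coding exon (an exon of a protein-coding transcript).

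In windows from 250 nt before to 50 nt after each annotated transcript start, members had a median of 12 CG dinucleotides, against 5 over the 18372 matched transcripts with such a window. Members ranged from 2 to 43. Of the 4 called above 5 FPKM, ENST00000434063 had 15, ENST00000428939 had 11, ENST00000517635 had 7 and ENST00000517550 had 3. The windows of neighbouring starts overlap in part. A few motifs were searched on both strands of these windows. TATAAA, the TATA box, was in 5 of 28 member windows (17.9%, against 15.9% of all windows). For CCAAT, the motif of the factor NF-Y, the count was 9 (32.1%, against 35.1%). AGGTCA, a half-site of nuclear receptors, the retinoic acid receptors among them, was in 3 (10.7%, against 17.9%), all at starts of HOTAIRM1. Only a single copy was searched for, not a pair. A match describes these letters only.

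Among all tested genes with an approved symbol, TMEM225B (46.7 ± 5.32 FPKM) and RALY-AS1 (48.6 ± 13.7 FPKM) had library values most like those of HOTAIRM1, with Euclidean distances of 0.35 and 0.39 over the 4 libraries on the log2(FPKM + 1) scale. For TMEM225B, as for every gene, the value covers only the transcripts held by the non-coding reference.

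The HOXA-AS2 gene (ENSG00000253552, chr7:27147396-27173921, plus strand) had 10 transcripts in the table, 8 of them above 0. Its level was steady but was divided among isoforms with different ends. Junctions are shown for the 3 isoforms of highest mean, since each is in 1 row only, and in the same form as above. ENST00000521687 is shown by its current model, whose version differs from that of the table.
ENST00000517635 (exon end 27155962, next exon start 27161538): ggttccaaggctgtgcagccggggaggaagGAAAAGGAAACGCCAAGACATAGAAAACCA
ENST00000517550, first junction (exon end 27161645, next exon start 27162086): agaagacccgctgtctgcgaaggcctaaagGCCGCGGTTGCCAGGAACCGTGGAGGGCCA
ENST00000521687, second junction (exon end 27163257, next exon start 27167819): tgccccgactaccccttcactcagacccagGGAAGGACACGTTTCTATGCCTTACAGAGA

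ENST00000517635 (2 exons, 2455 nt) had 15.33, 13.95, 13.45 and 18.06 FPKM, a mean of 15.2 ± 2.07 FPKM. All libraries were above 5 FPKM (log2 difference 1.42, limma adjusted p = 7.51e-06), and the isoform held 43.6 ± 7.31% of the gene. It had 1482 bases of its own (60.4%) and only 84 nt opposite a coding exon (3.42%, of HOXA3). With about 165, 161, 152 and 214 fragments, it rested on more fragments than any other member for which they were estimated, and its CV was 13.6%, where counting gives 7.6%.

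ENST00000517550 (4 exons, 2022 nt) had 9.86, 6.62, 7.01 and 6.93 FPKM, a mean of 7.61 ± 1.51 FPKM and 21.9 ± 5.46% of the gene. Replicate 1 stood above the other libraries, which lay close together. It was called above 5 FPKM (log2 difference 0.51, limma adjusted p = 0.0278), and the call was lost without replicate 1 (limma adjusted p = 0.137) and without replicate 3 (limma adjusted p = 0.0582). It was also lost with the H libraries alone (limma adjusted p = 0.288) and with the L libraries alone (limma adjusted p = 0.0531). Of its length, 338 nt (16.7%) lay opposite exons of HOXA3 and HOXA4. ENST00000521687 (3 exons, 764 nt) had 3.05, 5.99, 7.57 and 4.68 FPKM, which lie on both sides of 5 FPKM. It was the member that could not be placed (log2 difference 0.02, limma adjusted p = 0.934). This isoform was lowest in replicate 1, where ENST00000517550 was highest, and apart from its second junction it had no sequence that other rows lack. By its current model, 254 nt of ENST00000521687 (33.2%) lay opposite exons of HOXA3 and HOXA4.

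The remaining HOXA-AS2 isoforms above 0 were all called below 5 FPKM. ENST00000521159, which runs farthest toward HOXA5, had 3.04, 2.23, 3.41 and 2.14 FPKM and 7.79% of the gene. Its call (log2 difference -0.71, limma adjusted p = 0.0175) was lost without replicate 2 (limma adjusted p = 0.0546), without replicate 4 (limma adjusted p = 0.0585) and with the L libraries alone (limma adjusted p = 0.164). ENST00000517641 had 0, 3.43, 0 and 2.59 FPKM, and its call was lost with no filter (limma adjusted p = 0.0517) and with the H libraries alone (limma adjusted p = 0.16). ENST00000524048 had 0, 1.73, 1.97 and 0 FPKM. ENST00000518088 had 0.85, 3.88, 0 and 0 FPKM, and ENST00000523364 averaged 0.645 ± 0.443 FPKM with replicate 4 at 0. Each of these 4 was listed at 0 in at least 1 library, and 84 to 174 nt of 3 of them lay opposite an exon of HOXA3. The gene sum, with a CV of 6.88%, was steadier than its isoforms. CAPN10-DT (34.3 ± 2.12 FPKM) and SLC2A1-DT (35.1 ± 3.93 FPKM) had the library values nearest to HOXA-AS2, with distances of 0.09 and 0.11.

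**Figure D4:**
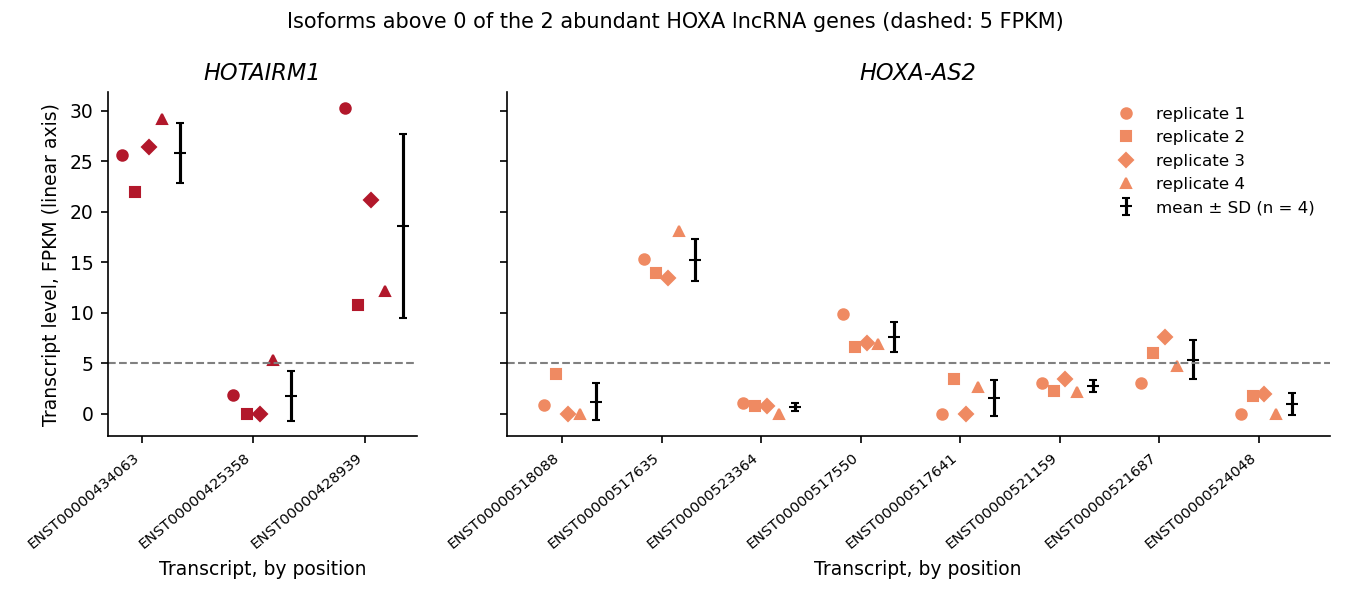
FPKM (linear axis) of each isoform of HOTAIRM1 and HOXA-AS2 above 0, ordered by position, with points for the 4 libraries, bars for mean ± SD and a dashed line at 5 FPKM. The libraries of ENST00000434063 lie between 21.95 and 29.18 FPKM, while those of ENST00000428939 run from 10.71 to 30.32 FPKM.

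HOXA-AS3 (ENSG00000254369, chr7:27169596-27195547, plus strand), known from studies of lung cancer cells and mesenchymal stem cells, had 5 transcripts, of which 3 were tested and all 3 were below 5 FPKM. ENST00000521231 had 0.74, 0.7, 0.2 and 0 FPKM, which corresponds to about 1.81, 1.84, 0.514 and 0 fragments. ENST00000518848 had 0, 0, 0.44 and 0.41 FPKM, and ENST00000518947 had 0.33, 0.06, 0.19 and 0 FPKM. No isoform was above 0 in every library, and the libraries with ENST00000521231 highest were those with ENST00000518848 at 0. ENST00000524304, with 0.15, 0, 0 and 0.1 FPKM, was not tested. Of the isoforms above 0, between 14.1% and 63.4% of the length lay opposite coding exons of HOXA3, HOXA4, HOXA6 or HOXA7. Whether strand was used in the alignment is not given in the sources used here, and the part of coding RNA from the opposite strand in these values was not tested. LINC02794 (0.83 ± 0.252 FPKM, distance 0.21) and LINC01527 (0.72 ± 0.381 FPKM, distance 0.26) had the nearest library values.

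HOXA11-AS (ENSG00000240990, chr7:27224126-27228917, plus strand) had 5 transcripts, all tested and all below 5 FPKM. ENST00000520395 was the only isoform above 0 in every library, with 0.65, 0.55, 0.46 and 0.69 FPKM (log2 difference -1.92, limma adjusted p = 1.11e-05). ENST00000522674 had 0.81, 0.56, 0 and 0.45 FPKM, about 5.38, 4.0, 0 and 3.3 fragments. ENST00000522863 had 0.59, 0.19, 0 and 0.25 FPKM. Replicate 3 was thus at 0 in both of these, and it was also the lowest library of the gene. ENST00000520360 was above 0 only in replicate 2 (0.95 FPKM) and ENST00000479766 only in replicate 3 (0.41 FPKM). Coding exons of HOXA11 lay opposite 40.4% of ENST00000520360 and 32.3% of ENST00000522863, and opposite none of the other isoforms. ENST00000523331, a non-coding transcript on the minus strand of the same stretch, had 0.93, 2.16, 0.44 and 1.25 FPKM and lay opposite 141 nt of ENST00000520395. LINC02209 (1.5 ± 0.487 FPKM, distance 0.18) and LINC01721 (1.61 ± 0.424 FPKM, distance 0.27) had the nearest library values. The junction of the steadiest isoform is given, which is in 1 row only and follows a current model of another version than the table's.
ENST00000520395 (exon end 27225882, next exon start 27226302): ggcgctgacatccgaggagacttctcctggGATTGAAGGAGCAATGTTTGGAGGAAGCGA

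HOTTIP (ENSG00000243766, chr7:27238194-27246878, plus strand) had 3 transcripts, all tested and all below 5 FPKM, and none with a base opposite a coding exon. Their junctions are given because 2 of the isoforms join the same downstream exon start to different upstream exons. That of ENST00000521028 follows a current model of another version than the table's.
ENST00000421733 (exon end 27238360, next exon start 27240242): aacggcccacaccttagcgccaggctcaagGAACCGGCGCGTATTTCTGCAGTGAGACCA
ENST00000472494 (exon end 27240140, next exon start 27240242): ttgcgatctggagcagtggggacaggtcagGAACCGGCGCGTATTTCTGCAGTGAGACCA
ENST00000521028 (exon end 27242257, next exon start 27244331): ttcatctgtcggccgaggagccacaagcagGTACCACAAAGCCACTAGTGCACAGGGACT

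ENST00000521028 (3343 nt, 2548 of them in no other row) had 0.82, 0.94, 1.13 and 1.33 FPKM, a narrow range that held 52.3 ± 20.7% of the gene. ENST00000472494 (2285 nt) had 0.17, 1.56, 1.12 and 0.52 FPKM, about 1.7, 16.7, 11.7 and 5.72 fragments. Its CV was 73.4%, where counting gives 33.4%. ENST00000421733, the isoform that starts first, had 0, 0, 0.15 and 1.34 FPKM. The low gene level of replicate 1 (0.99 FPKM) was also the lowest of ENST00000472494 and of ENST00000521028, and ENST00000421733 was at 0 in replicates 1 and 2. When the H libraries alone were fitted, HOTTIP could not be placed against 5 FPKM (log2 difference -0.65, limma adjusted p = 0.0794). FTO (2.36 ± 0.748 FPKM, distance 0.31) and LNMICC (2.06 ± 0.576 FPKM, distance 0.38) had the nearest library values. FTO is the gene of an RNA demethylase, and its value covers only its transcripts in the non-coding reference, not its coding RNA.

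Other non-coding genes of the HOX clusters place these levels. HOXA10-AS, between HOXA-AS3 and HOXA11-AS, had 0.2, 0.59, 0.4 and 0.75 FPKM and was below 5 FPKM (limma adjusted p = 2.35e-07), and EVX1-AS, beyond HOTTIP, was listed at 0 in every library. Among the rows matched to the annotation, no other row of the HOXA region, taken with 100 kb on either side, had a mean above 5 FPKM. Of 12 measured genes of the HOXB, HOXC and HOXD clusters, 4 were above 5 FPKM, 4 were below, 1 was not placed and 3 had a mean under 0.1 FPKM. The highest was HAGLR of the HOXD cluster (64.4 ± 15.9 FPKM), followed by HOXD-AS2 (15.5 ± 2.76 FPKM) and HOXC-AS3 (11.5 ± 2.85 FPKM). The libraries of HOTAIRM1 (32.66 to 57.77 FPKM) overlapped those of HAGLR (48.6 to 83.28 FPKM), and the lowest library of HOXA-AS2 (33.14 FPKM) lay above the highest of HOXD-AS2 (19.44 FPKM). No test was run between these genes.

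**Figure D5:**
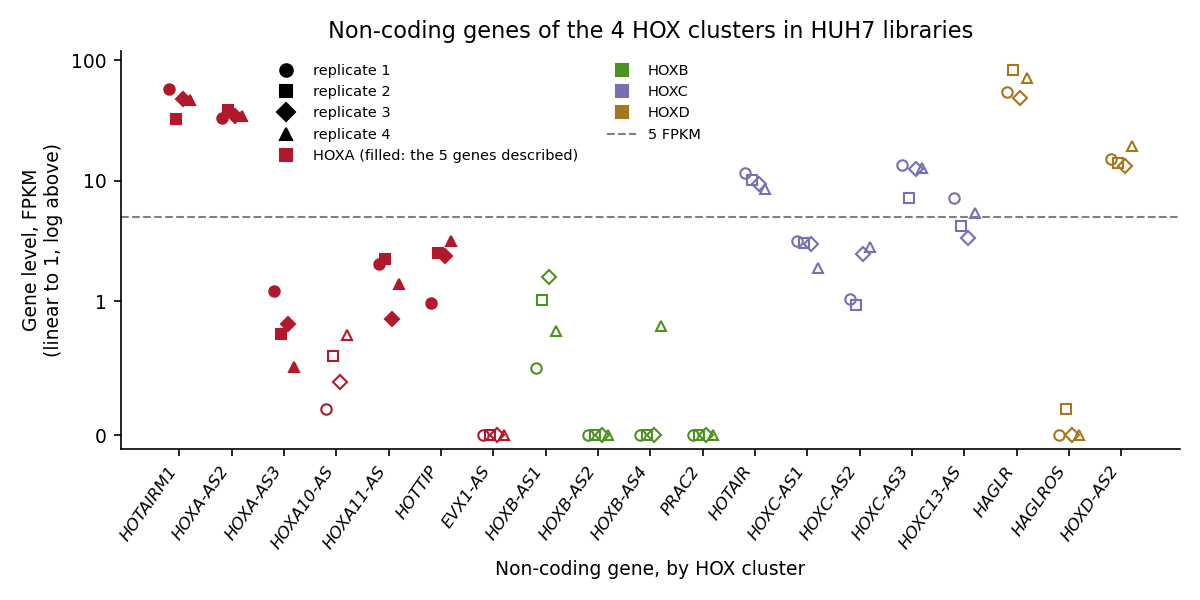
FPKM of the measured non-coding genes of the HOXA, HOXB, HOXC and HOXD clusters in the 4 HUH7 libraries (axis linear to 1 and logarithmic above), with the 5 genes described filled and a dashed line at 5 FPKM. HOTAIRM1, HOXA-AS2 and HAGLR have means of 46.1, 35.1 and 64.4 FPKM.

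The members together summed to 76.78 to 95.17 FPKM per library, of 1755972 to 1965229 FPKM in all rows. Of the 24-mers of a member that span no exon junction, 93.9% to 100% occurred once in the GRCh37 genome. At most 0.412% of all 24-mers of a member occurred in rows of other genes. Of hepatocyte and liver cancer lncRNAs, 5 of 9 measured were above 5 FPKM, where 50.3% of all tested genes were. HULC led them (693 ± 64.8 FPKM), LINC01370 was at 0, and their summed level was 1472 to 1674 FPKM. Of blood cell lncRNAs 3 of 6 were above (summed 393.5 to 489.8 FPKM), led by LINC00426 (328 ± 24.7 FPKM), with MIR155HG at 0. Of stromal ones 3 of 6 were above (summed 123.2 to 141 FPKM), led by MIR503HG (54.1 ± 6.46 FPKM), with LINC00702 and SENCR at 0. Of those measured, 1 hepatocyte, 2 blood cell and 2 stromal lncRNAs had a mean under 0.1 FPKM and were not tested. The 50.3% covers tested genes only, so these shares are not directly comparable with it.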

How the data were processed

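Ribosomal RNA depleted, strand-specific libraries of HUH7 cells were sequenced (4 libraries, 1 group). The authors deposited FPKM per transcript, with 2 decimals and no counts. Reads had been placed with Bowtie 1.01 (study methods and submitters' processing notes) on the Ensembl 68 non-coding transcripts on hg19 (GRCh37) and summarised with RSEM 1.2.3, which divides shared reads between isoforms by estimation. Coding transcripts were not in that reference, the strand setting is not given in the sources used here, and no scaling between libraries is described.

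Identifiers were matched without version to GENCODE 44 mapped to GRCh37, the build of the files. In all, 18373 of 19835 matched, all 28 members among them, 16 of these with the same version. Positions, exons, junctions and sequences of members follow the current models on GRCh37, and those of the 12 members with another version may differ from the models the authors used. The members and lists were chosen with earlier results of these data known. The rule for named genes took all 5 member genes and every member transcript, other HOXA region transcripts above 5 FPKM, the 3 highest of the other HOX lncRNAs, and for each member the 2 genes with an approved symbol of nearest library values.

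All 11435 transcripts and 7124 genes (sums over transcripts) whose mean reached 0.1 FPKM entered a moderated limma fit (limma 3.58.1, R 4.3.3, trended prior) of log2(FPKM + 1), tested two-sided against log2(5 + 1), with p-values adjusted by Benjamini-Hochberg over all of them and called at 0.05. The log2(FPKM + 1) scale understates differences of low values. Pairs of member genes were compared by an exact sign-flip permutation test. Depth was estimated from the steps of low FPKM values of transcripts from 300 to 2000 nt with the same version, with 80 nt taken from the length. Between 81.0% and 82.0% of 763 to 790 low values per library lay within 0.05 of a whole fragment, where 10% would lie there if values were uniform. The offset and depth were fitted for this share, so fragments are estimates and entered no count model. Counting error is that of fragments, which are not independent molecules. Fragments were estimated for members with the same version only. The limma test was checked on simulated data. Other settings tried were a pseudocount of 0.1, no filter, a filter at 1 FPKM, thresholds of 1 and 10 FPKM, median-of-ratios scaling, no trend, each replicate left out, the H or the L libraries alone, the highest isoform and isoforms of the same version.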

Additional observations from a re-analysis of the deposited data

Results flagged for a closer look

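In 27 sets of 4 library values (5 genes and 22 transcripts), 4 had a single library far from the rest by Dixon's ratio of gap to range, where chance gives about 1 in 20 sets of normally spread values. That rate does not apply to sets with several libraries at or near 0, which 3 of the 4 are. ENST00000517550 of HOXA-AS2 stood at 9.86 FPKM in replicate 1, against 6.62 to 7.01 FPKM in the other libraries. ENST00000520360 of HOXA11-AS stood at 0.95 FPKM in replicate 2 and was listed at 0 elsewhere. ENST00000479766 of HOXA11-AS stood at 0.41 FPKM in replicate 3 and was listed at 0 elsewhere. ENST00000421733 of HOTTIP stood at 1.34 FPKM in replicate 4, against 0 to 0.15 FPKM in the other libraries. No gene sum was among them.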

How the results depend on the processing

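Under a pseudocount of 0.1, no trend, median-of-ratios scaling (size factors 0.925 to 1.12), no filter, the threshold of 10 FPKM, and with each replicate left out, the 5 gene calls kept their direction and side of the threshold. Against 1 FPKM, 7 member transcripts and 0 genes were below: HOXA11-AS turned to a log2 difference of 0.37 (adjusted p = 0.153) and HOTTIP to 0.66 (adjusted p = 0.0215), HOXA-AS3 at -0.14 (adjusted p = 0.54) lost its call, and ENST00000425358 (0.037), ENST00000521159 (0.87) and ENST00000521028 (0.033) turned positive. With a filter at 1 FPKM, 5 member transcripts were below, since fewer were tested, and HOXA-AS3 had no value. Against 10 FPKM, ENST00000517550 turned to -0.37 and ENST00000521687 to -0.85. HOTTIP with the H libraries alone was -0.65 (adjusted p = 0.0794). ENST00000521687 turned to -0.026 with the L libraries alone and lay between -0.14 and 0.22 when single replicates were left out. No paired analysis was possible because there was 1 group. Counted over single transcripts and settings, a limma call was lost in 22 of 265 cases, gained in 2 and turned from below to above in 1 (ENST00000521159 against 1 FPKM). Depth limits the scarce isoforms, since 1 fragment on a transcript of 621 nt is worth 0.37 to 0.409 FPKM.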
